A study of Mus musculus with 12 samples.

Results

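The genes described here are 10 genes of MHC antigen presentation in the mouse submandibular gland (SMG), chosen by name from the 56065 genes of the deposited count table. H2-K1, H2-D1, B2m, Tap1 and Nlrc5 belong to the class I pathway, and H2-Aa, H2-Ab1, H2-Eb1, Cd74 and Ciita to the class II pathway. Bulk RNA-sequencing was performed on SMGs from C57BL/6J wild-type (WT) mice and from C57BL/6J mice homozygous for a Pou2f3 knockout allele (KO, Pou2f3-/-), in females and in males, all young adults of the same age. There were 4 groups (WT females, KO females, WT males and KO males) of 3 mice, 1 library per mouse, 12 libraries in all. Pou2f3 is the transcription factor that tuft cells, a rare chemosensory epithelial cell type of the ducts, require for their formation. The knockout is constitutive and present in every tissue, so that the gland is compared together with the whole animal that carries it. The comparisons ask how genotype and sex bear on the RNA of the gland.

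MHC class I molecules are made by nearly all nucleated cells and present peptides from the cytosol to CD8+ T cells. A polymorphic heavy chain (H2-K1 or H2-D1 in this strain) is held together with beta-2 microglobulin (B2m), and the transporter that includes Tap1 carries the peptides into the endoplasmic reticulum. MHC class II molecules are heterodimers, I-A (H2-Aa with H2-Ab1) and I-E, which present endocytosed antigen to CD4+ T cells and are found mainly on dendritic cells, macrophages and B cells, and on epithelium under interferon gamma. Cd74, the invariant chain, escorts class II molecules to the endosome. Nlrc5 and Ciita are related coactivators that bind no DNA themselves and act on the proximal promoters of the class I and class II genes.

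Library sizes ran from 47031917 to 67881902 counts. The 20 most abundant genes took 53.2% to 80.0% of them, and levels are therefore given as CPM, counts relative to a library size adjusted by TMM. TMM factors ran from 0.625 to 0.759 in WT females, from 0.902 to 1.03 in KO females, from 1.04 to 1.45 in WT males and from 1.11 to 1.25 in KO males. Pou2f3 had 0 to 10 counts in WT and 0 to 3 counts in KO libraries, too few to check the genotype labels. WT female replicate 1 stood apart in the markers of macrophages, whose summed level over 10 genes was 216.2 CPM against 85.0 to 185.1 CPM in the other 11 libraries. Its Adgre1, the F4/80 antigen, was at 43.4 CPM, against 4.25 to 10.9 CPM elsewhere. Calls of the 10 genes and of the macrophage markers that rest on this library are given with and without it. Correlations of markers, list genes and other genes within groups are given over 12 libraries only.

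The promoters on which these coactivators act are shown for the class I heavy chains and B2m, which differed in KO females, and for class II chains, which did not pass there. RefSeq promoter windows were found for 6 of the 10 genes (H2-K1, H2-D1, B2m, Tap1, H2-Aa and H2-Eb1), and 5 of them are printed as the 250 bases before the RefSeq start site, 5′ to 3′ on the strand of the gene. The table gives them in GRCm38.p6, and each matched GRCm39 exactly once on its chromosome: H2-K1 at chr17:34219322-34219571 (minus strand), H2-D1 at chr17:35481820-35482069 (plus), B2m at chr2:121977918-121978167 (plus), H2-Aa at chr17:34506798-34507047 (minus) and H2-Eb1 at chr17:34524591-34524840 (plus). Capitals mark every match, on either strand, to CCAAT (the core of the Y box), TGACG (part of the X2 box) and AGCAAC (part of the X box). They also mark GAAANNGAA (a form of the core of the interferon-stimulated response element) and TTCNNNGAA (a form of the gamma-activated site).
H2-K1: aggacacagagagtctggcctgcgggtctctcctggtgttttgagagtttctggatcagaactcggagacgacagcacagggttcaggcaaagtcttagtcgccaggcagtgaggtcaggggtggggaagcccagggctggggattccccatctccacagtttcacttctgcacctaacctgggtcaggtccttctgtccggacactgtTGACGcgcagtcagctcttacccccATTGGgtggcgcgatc
H2-D1: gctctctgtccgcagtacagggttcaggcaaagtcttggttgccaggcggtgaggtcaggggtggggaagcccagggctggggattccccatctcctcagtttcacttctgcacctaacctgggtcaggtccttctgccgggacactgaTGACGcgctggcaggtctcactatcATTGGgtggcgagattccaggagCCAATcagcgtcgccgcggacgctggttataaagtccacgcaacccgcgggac
B2m: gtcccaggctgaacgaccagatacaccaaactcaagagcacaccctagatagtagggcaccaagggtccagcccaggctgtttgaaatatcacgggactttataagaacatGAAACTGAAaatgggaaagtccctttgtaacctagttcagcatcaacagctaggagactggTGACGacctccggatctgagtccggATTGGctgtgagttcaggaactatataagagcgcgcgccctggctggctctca
H2-Aa: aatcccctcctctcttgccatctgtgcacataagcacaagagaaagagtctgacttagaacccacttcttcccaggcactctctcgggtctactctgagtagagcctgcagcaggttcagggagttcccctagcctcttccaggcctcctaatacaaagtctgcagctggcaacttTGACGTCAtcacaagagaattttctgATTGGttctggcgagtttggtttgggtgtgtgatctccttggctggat
H2-Eb1: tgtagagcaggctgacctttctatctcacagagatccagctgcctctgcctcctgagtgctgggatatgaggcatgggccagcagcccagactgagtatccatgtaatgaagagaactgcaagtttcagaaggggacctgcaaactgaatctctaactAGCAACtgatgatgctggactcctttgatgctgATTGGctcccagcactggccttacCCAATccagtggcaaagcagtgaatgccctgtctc

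The Y box core was present in 6 of 6 windows, Tap1 included, and in 33.8% of the 32851 RefSeq windows of this length. TGACG was present in 5 of 6, all but H2-Eb1, against 17.8% of all windows, and in H2-Aa its copies on both strands overlap in the palindrome printed in capitals. AGCAAC was present in H2-Eb1 alone of the 6, against 12.2% of all windows. GAAANNGAA was present in B2m alone, 139 to 131 bases before the start, against 7.13% of all windows. TTCNNNGAA was present in 0 of 6, against 7.02%. Other spellings of these 2 elements were not searched, so windows without a match cannot be said to lack them. H2-K1 and H2-D1 both hold agtttcacttct, which the search for GAAANNGAA does not match on either strand. In H2-K1 the TGACG lay 41 bases and the reversed Y box core 16 bases before the start, and in B2m they lay 78 and 53 bases before it. A match of these letters is a description of the sequence and not evidence of a bound site.

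Levels between genes were compared per kilobase of the canonical transcript. Over the 12 libraries, H2-K1 had a median of 89.9 CPM per kb (46.3 to 127.9), H2-D1 84.5 (47.4 to 103.8) and Cd74 82.9 (61.5 to 118.1), and these 3 overlapped throughout. B2m followed at 55.3 CPM per kb (25.7 to 76.2). The class II chains H2-Aa, H2-Ab1 and H2-Eb1 were close to each other, at medians of 31.5, 30.8 and 26.1 CPM per kb, and their ranges overlapped with each other and with the low end of B2m. Tap1 (4.07 CPM per kb), Nlrc5 (1.37) and Ciita (0.478) were lowest, and their ranges did not overlap with those of the other 7 genes or with each other. With the union of all annotated exons in place of the canonical transcript, H2-D1 came before Cd74 and H2-K1, and H2-Eb1 before H2-Ab1 and H2-Aa, so the order within these sets depends on the length used. H2-K1 and H2-D1 together held 67.97% to 82.8% of the counts assigned to 18 class I heavy chain genes, and since those genes are near-identical in places, Salmon may divide their reads among copies with error.

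In KO females, the class I heavy chains and B2m were lower than in WT females, while Nlrc5 was higher and Tap1 and the class II genes did not pass the test. H2-K1, whose gene lies at chr17:34214987-34219321 (GRCm39), was at 94.8, 140.0 and 147.8 CPM in the 3 WT females and at 95.8, 97.6 and 75.0 CPM in the 3 KO females. The groups overlapped through WT female replicate 1, which lay with the knockouts. The log2 fold change was −0.51 (SE 0.18, edgeR, adjusted p = 0.0436). The call was lost with upper-quartile scaling, with the authors' own factors, and in 4 of 6 fits without 1 library (KO replicates 1 and 3, WT replicates 2 and 3), with log2 fold changes between −0.75 and −0.41 over all alternatives.

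H2-D1 (chr17:35481691-35486475) was at 137.0, 180.4 and 202.2 CPM in WT females and at 116.8, 125.9 and 100.3 CPM in KO females. Each KO female was below each WT female. The share of all genes whose groups did not overlap was not computed, so a lack of overlap is only described, here and in the other comparisons. The log2 fold change was −0.60 (SE 0.16), or a level 1.51-fold lower, and passed the test (edgeR, adjusted p = 0.0106). B2m (chr2:121977957-121983594) was at 52.2, 48.1 and 68.9 CPM in WT and at 27.9, 43.9 and 32.5 CPM in KO females. Again the groups did not overlap, and B2m was 1.62-fold lower (log2 fold change −0.70, SE 0.18, edgeR, adjusted p = 0.0101). The calls of H2-D1 and B2m held in 15 of 15 alternatives each, the removal of any library included.

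Tap1, a subunit of the peptide transporter (chr17:34405996-34416199), was at 15.1, 13.5 and 14.2 CPM in WT females and at 14.2, 13.4 and 11.0 CPM in KO females. The groups overlapped, and the log2 fold change of −0.14 (95% interval −0.38 to 0.09) did not pass the test (edgeR, adjusted p = 0.326). Nlrc5, the class I coactivator, was at 10.3, 7.33 and 7.27 CPM in WT and at 18.1, 13.6 and 9.95 CPM in KO females. Here KO replicate 3 lay just below WT replicate 1, and the log2 fold change was 0.74 (SE 0.23, edgeR, adjusted p = 0.0219). Nlrc5 thus rose where the class I heavy chains and B2m fell. Its call was lost in 4 of 6 fits without 1 library (KO replicates 1 and 2, WT replicates 2 and 3), with log2 fold changes between 0.46 and 1.01 over all alternatives.

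**Figure D1:**
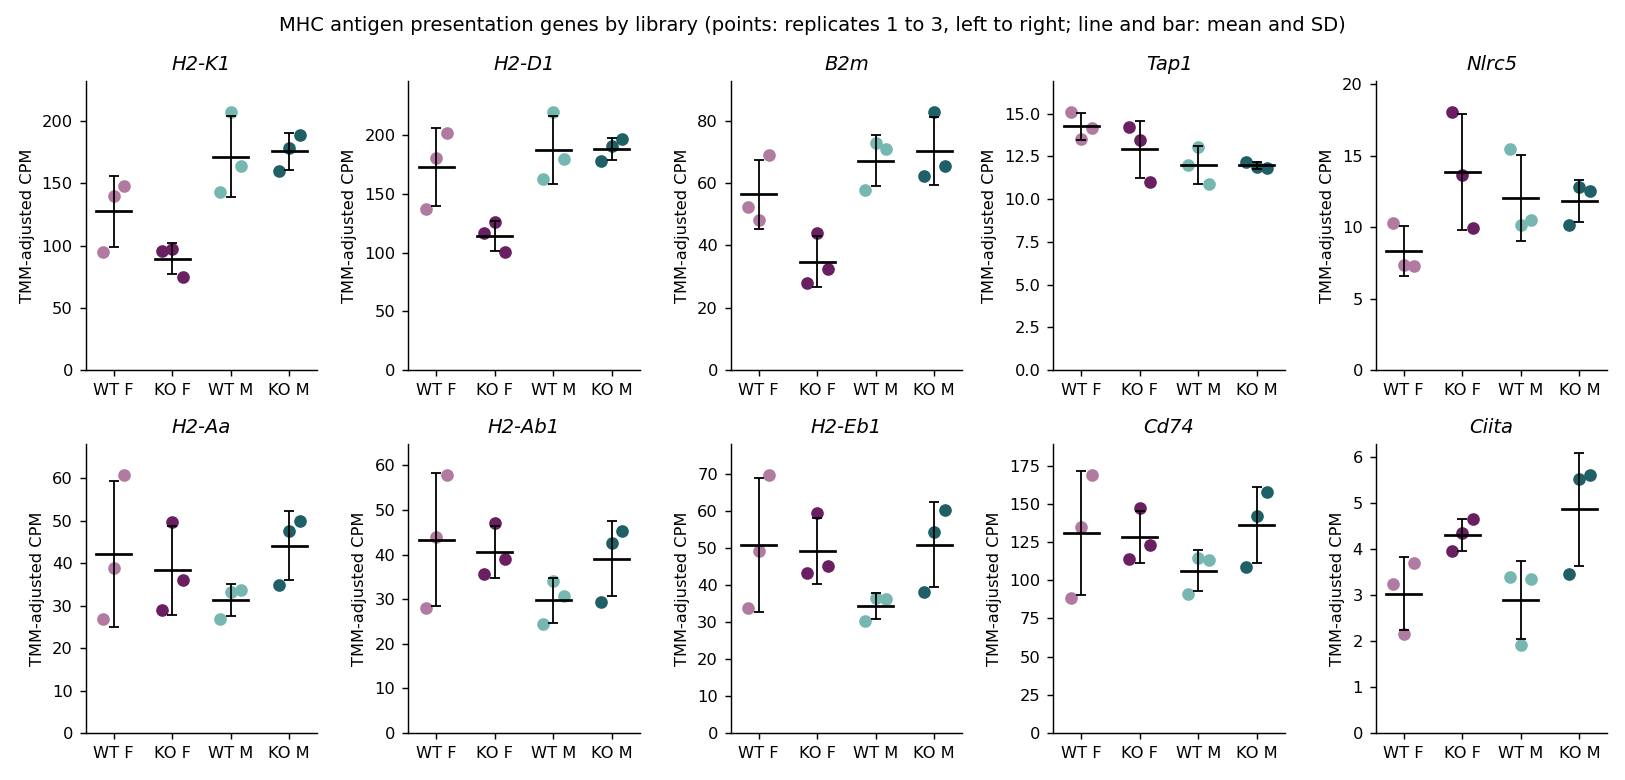
TMM-adjusted CPM of the 10 genes in WT females (WT F), KO females (KO F), WT males (WT M) and KO males (KO M), with 1 point per library and the mean and SD of 3 mice. KO females lie below the other groups in H2-D1 and B2m, while in the class II genes the spread within a group, from 88.0 to 169.0 CPM of Cd74 in WT females, is as wide as any distance between groups.

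The class II genes differed more between mice of a group than between the female groups. H2-Aa, the I-A alpha chain (chr17:34493404-34506798), was at 26.9, 38.8 and 60.9 CPM in WT females and at 29.1, 49.8 and 36.2 CPM in KO females. H2-Ab1, its beta chain partner (chr17:34476663-34488393), was at 28.1, 43.9 and 57.9 CPM in WT and at 35.7, 47.1 and 38.9 CPM in KO females. In both, the KO libraries lay inside the range set by WT replicates 1 and 3. H2-Eb1, the I-E beta chain (chr17:34504236-34535648), ran from 33.8 to 69.9 CPM in WT and from 43.2 to 59.7 CPM in KO females, and Cd74 from 88.0 to 169.0 CPM and from 114.2 to 147.4 CPM. Their log2 fold changes were −0.14 (95% interval −0.70 to 0.43) for H2-Aa, −0.09 (−0.59 to 0.41) for H2-Ab1, −0.04 (−0.55 to 0.46) for H2-Eb1 and −0.03 (−0.49 to 0.43) for Cd74. The interval of H2-Aa reached as far as −0.70 and that of Cd74 no further than −0.49. H2-Ea, the alpha chain of I-E, which C57BL/6 mice do not express because of a promoter deletion, had 0 counts in 11 libraries and 6 counts in WT male replicate 3.

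Ciita, the class II coactivator (chr16:10297923-10347694), was at 3.25, 2.15 and 3.70 CPM in WT females and at 3.95, 4.35 and 4.65 CPM in KO females. The groups did not overlap, yet the log2 fold change of 0.51 (95% interval −0.05 to 1.07) did not pass the test (edgeR, adjusted p = 0.145), nor in any of 15 alternatives. In all, 3 of the 10 genes were lower and 1 was higher in KO females, where 19.3% and 17.6% of the 17893 tested genes were lower and higher. The members' count is near that background, so it is not a result about the set as such. The acinar markers moved in the same comparison, with 3 of 6 lower and 0 higher. Their sum was 336547 to 553803 CPM in WT and 193880 to 229657 CPM in KO females, nearly all of it from the secretory gene Mucl2, and the water channel Aqp5 was at 247.8 to 333.3 CPM and 135.9 to 169.3 CPM. Of the convoluted tubule markers 2 of 6 were higher and 0 lower (median 0.36), and within groups the 6 had r of 0.52 to 0.89 with the mean of H2-K1, H2-D1 and B2m, as a description over 12 libraries. The 4 adipocyte markers had r of 0.68 to 0.82 with that mean, and the 5 endothelial markers ran from −0.59 to 0.85. Of the adipocyte markers 2 of 4 were lower (median −3.28), with 4 passing without WT female replicate 1 and 0 without WT female replicate 3. In duct and endothelial markers 1 of 5 each was lower. Macrophage markers were lower in 4 of 10 and higher in 1 (median −0.57), with 1 passing without WT female replicate 1 and 3 without WT female replicate 3. In bulk tissue, fewer cells of a type and less RNA per cell cannot be told apart, and the part of these marker changes in the class I result was not tested.

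In males the knockout moved none of the 10 genes past the test (edgeR, adjusted p of 0.259 or above), where 0.101% of all genes were higher and 0.134% lower. At an unadjusted p under 0.05 there were 2 genes with edgeR (H2-Eb1 and Ciita) and 3 with DESeq2 (also H2-Aa), against 11.5% of all genes in edgeR, and DESeq2 likewise called 0 after adjustment. The number of all genes called in males moved with the setting, from 42 to 635 without KO male replicate 1 and 13 to 25 without another library, to 399 with DESeq2 and to 389 with no low-count filter, and the count of members stayed at 0 in each. The class I genes were nearly level. H2-K1 was at 143.3, 207.0 and 163.4 CPM in WT and at 159.7, 178.2 and 188.9 CPM in KO males, and H2-D1 at 162.9, 219.7 and 179.8 CPM and at 178.2, 190.8 and 196.5 CPM. B2m was at 57.7, 72.7 and 71.0 CPM in WT and at 62.3, 82.8 and 65.6 CPM in KO males. Groups overlapped in all of them, and the log2 fold changes were 0.04 (95% interval −0.36 to 0.43), 0.01 (−0.33 to 0.35) and 0.07 (−0.33 to 0.46). Tap1 and Nlrc5 had log2 fold changes of 0.00015 (−0.24 to 0.24) and −0.02 (−0.50 to 0.46).

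The class II genes of males gave larger estimates with wide intervals. H2-Aa was at 26.9, 33.3 and 33.6 CPM in WT and at 34.8, 47.7 and 49.9 CPM in KO males, and H2-Eb1 at 30.3, 36.6 and 36.4 CPM and at 38.1, 54.5 and 60.3 CPM. In both, each KO male was above each WT male. Their log2 fold changes were 0.50 (95% interval −0.06 to 1.06, edgeR, adjusted p = 0.500) and 0.57 (0.06 to 1.07, adjusted p = 0.367). H2-Ab1 ran from 24.3 to 34.1 CPM in WT and from 29.4 to 45.3 CPM in KO males, and Cd74 from 90.7 to 114.2 CPM and from 108.5 to 157.4 CPM, with overlap. Ciita was at 3.40, 1.92 and 3.35 CPM in WT and at 3.45, 5.53 and 5.62 CPM in KO males, with no overlap and a log2 fold change of 0.75 (SE 0.26, edgeR, adjusted p = 0.259). KO male replicate 1 was the lowest KO male in each of these 5 genes. In the same comparison the summed macrophage markers ran from 97.1 to 115.0 CPM in WT and from 115.9 to 185.1 CPM in KO males, again with replicate 1 lowest among the knockouts, and none of the 10 markers passed the test (median log2 fold change 0.71). The dendritic cell markers had a median of 0.76, positive in 10 of 10, and none passed. The adipocyte markers summed to 1.38 to 1.40 CPM in WT and to 2.61, 31.4 and 15.1 CPM in KO males, with a median of 5.18 and 0 of 4 passing. Without KO male replicate 1, 4 of 4 adipocyte, 4 of 10 macrophage and 2 of 10 dendritic cell markers passed, and 0 of the 10 antigen presentation genes. The part of these cells in the class II estimates was not tested.

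The effect of the knockout in females minus that in males was tested for each gene. B2m passed (log2 difference −0.76, SE 0.26, edgeR, adjusted p = 0.0451), against 12.4% of all genes with a more negative and 13.4% with a more positive effect in females. H2-D1 (−0.61, adjusted p = 0.0616), H2-K1 (−0.55, 0.131) and Nlrc5 (0.76, 0.0916) did not pass, and H2-D1 passed with DESeq2 together with B2m. The B2m call held in 5 of 12 fits without 1 library. Without WT female replicate 1, 7 genes passed in place of 1, all with negative differences: H2-K1 (−0.82), H2-D1 (−0.85), B2m (−0.92), H2-Aa (−0.98), H2-Ab1 (−0.82), H2-Eb1 (−0.94) and Cd74 (−0.70). Of all genes, 5562 of 18437 passed without that library, against 4606 of 17893 with it. That library had the lowest H2-K1, H2-D1, H2-Aa, H2-Ab1, H2-Eb1 and Cd74 levels of the WT females together with the highest summed macrophage markers of all 12. Macrophage markers moved with the same difference, 5 of 10 passing as more negative and 1 as more positive in females (median −1.27), and 6 of 10 passed without WT female replicate 1 (median −0.97), 3 without KO male replicate 2 and 9 without KO male replicate 1. Adipocyte markers did too, 4 of 4 passing as more negative in females (median −8.52, and −9.17 without WT female replicate 1). Their sum was 41.2 CPM in WT female replicate 3, against 3.13 and 5.50 CPM in the other WT and 2.38 to 4.80 CPM in KO females. Without WT female replicate 3, 0 of the 10 genes passed, and the 4 adipocyte markers still did (median −6.06). The part of these cells in the difference was not tested.

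The sexes differed in class I among the knockouts. In KO males against KO females, H2-K1 was 1.96-fold higher (log2 fold change 0.97, SE 0.18, edgeR, adjusted p = 0.00102), H2-D1 1.65-fold (0.72, SE 0.16, adjusted p = 0.00279) and B2m 2.02-fold (1.01, SE 0.18, adjusted p = 0.000752). In each, the lowest KO male was above the highest KO female, for B2m at 62.3 against 43.9 CPM. These 3 calls held in 15 of 15 alternatives. The other 7 genes did not pass, the class II genes lying between −0.05 and 0.20. All genes passed as higher in 23.2% and as lower in 20.3% of cases in this comparison, so 3 of 10 higher is near the background. The markers of the granular convoluted tubules, which develop under androgens, moved with sex as well, summing to 4711.6 to 8886.8 CPM in KO females and 57838.1 to 75027.9 CPM in KO males, and 4 of 5 duct markers were higher and 1 lower. Macrophage markers were higher in 5 of 10 (median 0.56) and adipocyte markers in 3 of 4 (median 3.60), or in 2 of 10 and 0 of 4 without KO male replicate 2, while 4 of 6 acinar and 3 of 5 endothelial markers were lower. The part of these cells in the class I difference was not tested.

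Among WT mice, 0 of 10 genes passed between the sexes (edgeR), where 20.5% of all genes were higher and 16% lower in males. At an unadjusted p under 0.05 there were 5 with edgeR and with DESeq2: H2-K1 (log2 fold change 0.43) and Nlrc5 (0.53) toward males, and Tap1 (−0.25), H2-Ab1 (−0.54) and H2-Eb1 (−0.57) toward females. Of all genes, 46.2% had such a p in edgeR, so 5 of 10 is near the background. DESeq2 called 3 of them after adjustment, Tap1, H2-Ab1 and H2-Eb1. Tap1 was the one gene of the 10 whose WT groups did not overlap, at 11.99, 13.1 and 10.9 CPM in males against 13.5 to 15.1 CPM in females. Without the share over all genes, this count is not a result about the set. Without WT female replicate 1, 5 genes passed, Nlrc5 higher (0.68) and H2-Aa (−0.71), H2-Ab1 (−0.82), H2-Eb1 (−0.83) and Cd74 (−0.56) lower in males. Of all genes, 6425 of 18437 passed without that library, against 6523 of 17893 with it. The 4 adipocyte markers were lower in WT males as well (median −4.78), and 0 of 4 passed without WT female replicate 3. Of the macrophage markers 6 of 10 were lower and 1 higher (median −0.70), with 2 passing without WT female replicate 1 and 4 without WT female replicate 3, and 5 of 6 acinar and 4 of 5 endothelial markers were lower. Convoluted tubule markers were higher in WT males in 5 of 6 and lower in 1 (median 6.23), and of 5 duct markers 1 was higher and 1 lower. The part of these cells in the class I and class II values was not tested.

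**Figure D2:**
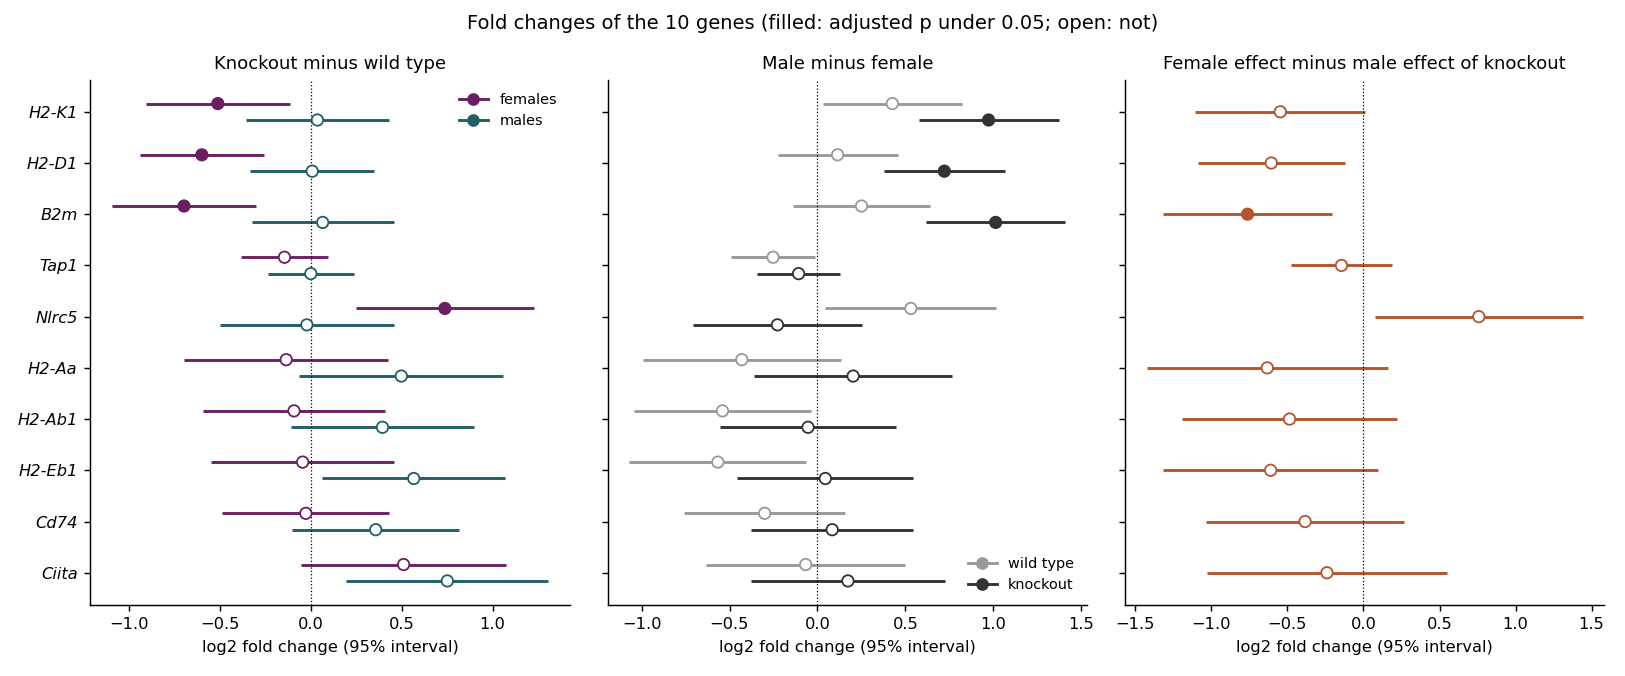
Log2 fold changes of the 10 genes with 95% intervals (edgeR), for knockout minus wild type in each sex, male minus female in each genotype, and the difference between the knockout effects of the sexes. Filled points passed at an adjusted p under 0.05. H2-K1, H2-D1 and B2m fall in KO females and stand higher in KO males than in KO females, while the intervals of the class II genes in KO females all span 0.

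The other genes of the pathway were taken from 8 lists of 81 genes, of which 72 could be tested. In KO females 25 of the 72 were lower and 2 higher, so that 37.5% passed, against 36.9% of all genes (19.3% lower and 17.6% higher). The peptide loading machinery, which fits peptides to class I molecules in the endoplasmic reticulum, had 6 of 7 genes lower and 0 higher in KO females, with a median log2 fold change of −0.74 against 0.03 over all genes tested. Among them were Erap1, the aminopeptidase that trims peptides (−0.74, edgeR, adjusted p = 0.000769), the chaperones Canx (−0.79, 0.00172) and Pdia3 (−0.86, 0.0025), and Tapbp, the bridge between the transporter and class I (−0.47, 0.00455). Canx and Pdia3 also serve the folding of secreted glycoproteins at large. The list named for the immunoproteasome, which cuts the peptides, also holds assembly and regulatory factors of the proteasome. Of its 6 genes 3 were lower and 0 higher: Pomp (−0.64, 0.000765), Psme2 (−0.46, 0.0022) and Psmb10 (−0.68, 0.0176). Pomp is an assembly factor of proteasomes at large and Psme2 a regulatory subunit. Of the catalytic subunits Psmb8, Psmb9 and Psmb10, Psmb10 alone passed. Psmb9, on the opposite strand, starts 742 bases from Tap1 by the outermost gene ends in Gencode, which differ from the RefSeq starts of the promoter windows. It had a log2 fold change of −0.21 and did not pass. Of 20 other class I heavy chain genes 14 could be tested, and H2-T22 (−0.65, 0.00028) and H2-T23 (−0.37, 0.0165) were lower, with 0 higher. Cell type markers moved in the same comparison. Acinar markers were lower in 3 of 6, adipocyte markers in 2 of 4 and macrophage markers in 4 of 10, with 1 macrophage marker higher. Convoluted tubule markers were higher in 2 of 6. The part of these cells in the changes of the 8 lists was not tested.

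On the class II side, 0 of 6 tested chains and chaperones passed in KO females, with a median of 0.06 (edgeR, and 0 with DESeq2, with 0 at an unadjusted p under 0.05 in either). The lysosomal enzymes and turnover factors had 6 of 9 lower and 0 higher, among them the ubiquitin ligase Marchf8 (−0.49, edgeR, adjusted p = 0.000738) and the cathepsins Ctsl (−0.63, 0.00106), Ctsb (−0.60, 0.0033) and Ctsd (−0.65, 0.0082), which act in lysosomes of all cells. The enhanceosome, the DNA-binding complex on which Nlrc5 and Ciita assemble, was divided. Rfx5 (0.54, 0.00863) and Rfxank (0.51, 0.0113), subunits that bind the X box, rose, and Nfyb (−0.55, 0.00407), which binds the Y box, and Atf1 (−0.26, 0.0336) fell, the last turning to 0.10 with the authors' factors. Of the interferon gamma axis, 6 of 17 tested genes were lower and 0 higher, including the kinase Jak1 (−0.50, 0.00163), the receptor subunit Ifngr2 (−0.52, 0.00408) and the induced GTPases Irgm1 (−0.61, 0.00503) and Gbp2 (−0.82, 0.00539). Among all genes tested 36.9% passed, 19.3% as lower and 17.6% as higher. The count of 6 of 17 is near the share that passed in either direction. Of 5 tested co-stimulation genes, 0 passed with edgeR or with DESeq2, and 0 had an unadjusted p under 0.05. With the authors' factors the calls of Erap1, Psmb10, Marchf8, Rfxank, Nfyb, Atf1 and Ifngr2 were lost, and that of H2-T23 with upper-quartile scaling. Rfx5 lost its call without KO replicate 3 or WT replicate 3, Rfxank without KO replicate 3 or WT replicate 1, Psmb10 without KO replicate 3, and Atf1 held in 7 of 15 alternatives.

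In males, 0 of the 72 tested genes of the 8 lists passed with edgeR or with DESeq2, with 10 and 13 at an unadjusted p under 0.05. In edgeR this was 13.9%, against 11.5% of all genes tested. The median log2 fold changes there were −0.02 for peptide loading, 0.03 for the enhanceosome, 0.04 for other class I heavy chains and 0.07 for class II processing. They were 0.23 for the immunoproteasome, 0.28 for the interferon gamma axis, 0.48 for other class II chains and chaperones and 0.53 for co-stimulation. The median over all genes tested was −0.04. The difference between the sexes' knockout effects passed for Erap1, Pdia3 and Canx of the loading machinery (3 of 7), for 4 of 6 immunoproteasome genes, for 5 of 9 class II processing genes and for 6 of 17 of the interferon gamma axis, each more negative in females. It passed for 2 of 14 other class I heavy chains, also more negative, for 1 enhanceosome gene in each direction, and for 0 of 6 class II chains and chaperones and 0 of 5 co-stimulation genes (edgeR, with 0 and 1 at an unadjusted p under 0.05, and 0 and 1 called by DESeq2). Over the 8 lists this was 21 of 72 more negative and 1 more positive, against 12.4% and 13.4% of all genes. Between WT males and females 33 of the 72 genes passed, 8 higher and 25 lower in males (45.8%, against 36.5% of all genes). Among knockouts 27 passed, 19 higher and 8 lower (37.5%, against 43.5%). The interferon gamma axis had 1 of 17 higher and 8 lower in WT males, and 4 higher and 2 lower in KO males. Irf8, an interferon-responsive transcription factor, was higher in WT males (log2 fold change 2.37, edgeR, adjusted p = 1.13e-06), as it was among knockouts (2.54, 8.46e-07). Irgm1 (−1.17, 3.57e-05), Igtp (−1.29, 0.000296) and Irf1 (−0.85, 0.00075) were lower in WT males.

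**Figure D3:**
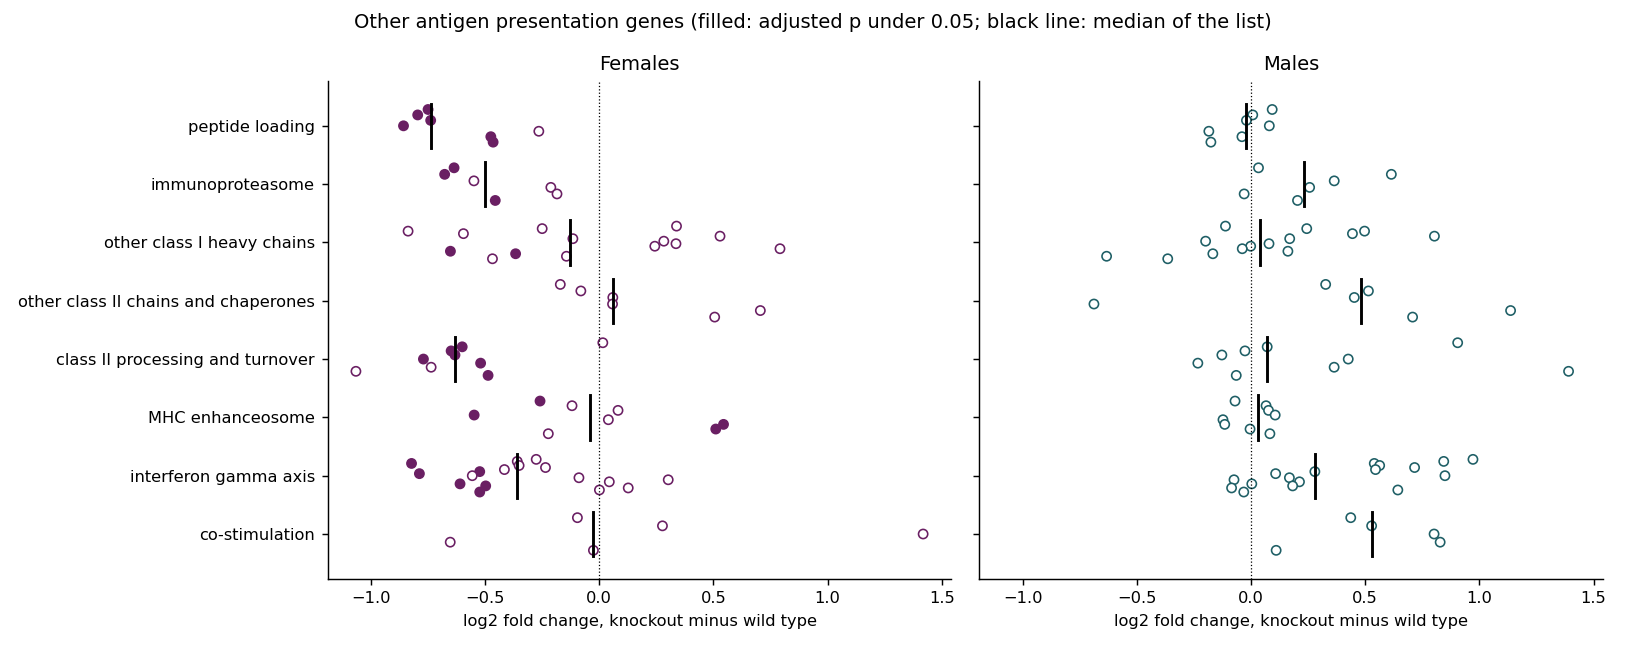
Log2 fold changes of knockout minus wild type for each tested gene of 8 lists of antigen presentation genes, females on the left and males on the right, with 1 point per gene and a black line at the median of the list. Filled points passed at an adjusted p under 0.05: in females 6 of 7 peptide loading genes lie filled to the left of 0, and in males all points are open.

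Within groups, the 4 abundant class II genes moved as a unit. The deviations of their log2 levels from the group means had Pearson r of 0.95 to 0.99 between any 2 of them over the 12 libraries, and of 0.93 to 0.99 without WT female replicate 1. H2-K1 and H2-D1 were as close, at r = 0.98. B2m had lower values with its heavy chains, 0.41 with H2-K1 and 0.53 with H2-D1, than with the class II genes, 0.63 to 0.79. H2-K1 and H2-D1 lay between 0.68 and 0.85 with the class II genes. Ciita, the class II coactivator, had r between 0.14 and 0.29 with the 4 class II genes, and between 0.28 and 0.44 without WT female replicate 1. Nlrc5 had r of −0.24 with H2-K1 and −0.30 with H2-D1 and with B2m (−0.02, −0.10 and −0.28 without that library), but 0.59 with Tap1 (0.56). These values are descriptions over libraries that share their depth and scaling, and low counts of Ciita add to its spread.

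**Figure D4:**
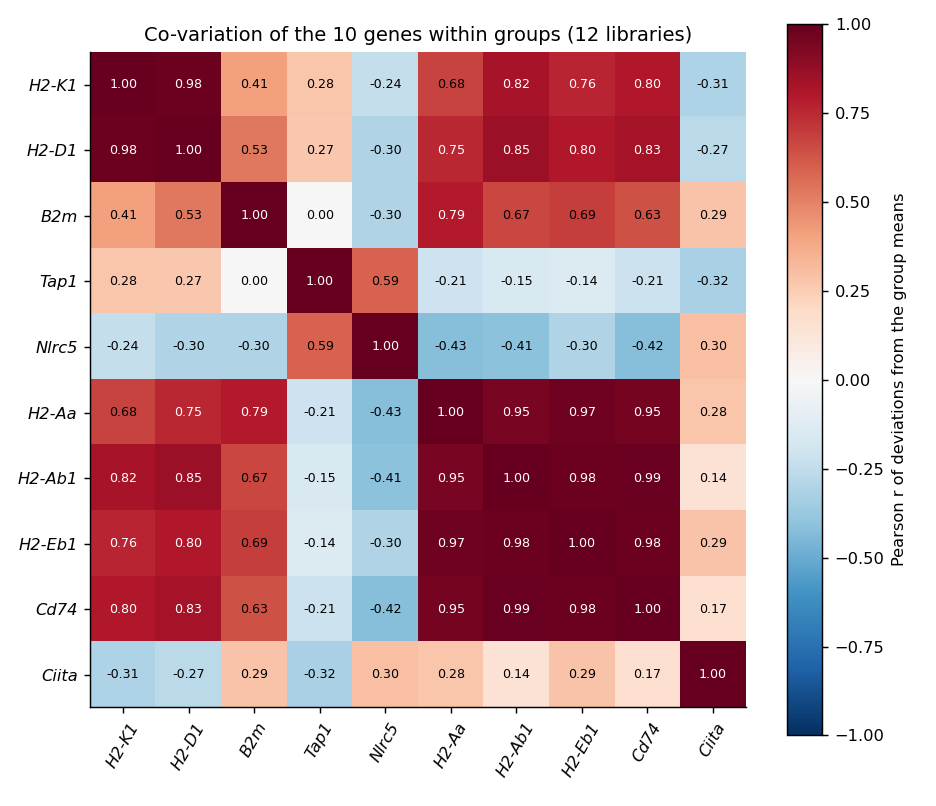
Pearson r over 12 libraries between the log2 CPM of the 10 genes, each taken relative to the mean of its group, with the value in each cell and red for positive and blue for negative. H2-Aa, H2-Ab1, H2-Eb1 and Cd74 form a block of 0.95 to 0.99, H2-K1 and H2-D1 a pair at 0.98, and Tap1, Nlrc5 and Ciita stay outside both.

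Among 11640 other genes with a mean count of at least 100, those most like the class II genes in this measure were Akr1c14 (r = 0.98), Clec7a (0.97), Prr15 (0.96), Sccpdh (0.96) and Txndc17 (0.96). Those most like H2-K1, H2-D1 and B2m were Cyb5b, Smim31, Snrnp27 and Map1lc3a (0.96 each) and Ube2l3 (0.95). By Spearman's rho, Akr1c14, Clec7a and Prr15 kept ranks 1 to 3 and Sccpdh fell to 28, and in the class I set Map1lc3a fell from rank 4 to 26.

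The sum of the 4 class II genes was set beside the markers of cells that carry them. It was 176.8, 266.9 and 357.7 CPM in WT females, 222.2, 303.9 and 243.5 CPM in KO females, 172.2, 218.2 and 214.3 CPM in WT males, and 210.8, 286.5 and 312.9 CPM in KO males. B cell markers were near the floor, with 0 of 9 genes passing the filter on low counts and sums of 0.185 to 0.778 CPM. T cell markers summed to 0.952 to 1.91 CPM over 8 genes. Of the dendritic cell markers, Xcr1, Clec9a and Flt3 were each below 1 CPM in every library, and the sum of the 9 other than Irf8 was 8.50 to 11.9 CPM in WT females, 11.0 to 13.1 in KO females, 7.43 to 9.13 in WT males and 8.36 to 14.1 CPM in KO males. Macrophage markers were the most abundant of these, at 96.7 to 216.2 CPM in WT females, 85.0 to 120.9 in KO females, 97.1 to 115.0 in WT males and 115.9 to 185.1 CPM in KO males, with none of the 10 at 0. In females, Adgre1 (log2 fold change −1.59), C1qa (−0.77), C1qb (−0.76) and Cx3cr1 (−0.89) were lower and Mertk (0.97) higher in knockouts, with WT replicate 1 the highest library in the first 4. Without that library 1 of the 10 markers passed in place of 5, and without WT replicate 3 there were 3. In the fit without replicate 1, Mertk was at 0.93 and passed, while Adgre1 was at −0.29, C1qa at −0.60, C1qb at −0.51 and Cx3cr1 at −0.32 and did not pass. Within groups, the dendritic cell markers Itgax (r = 0.90), Flt3 (0.82), Siglech (0.77) and Xcr1 (0.75) deviated together with the class II genes, the 10 dendritic markers running from −0.24 to 0.90 and the 10 macrophage markers from −0.43 to 0.46. The 4 adipocyte markers lay between 0.80 and 0.94. These are descriptions over 12 libraries that share depth and scaling, and Xcr1 and Flt3 rest on low counts. The part of these cells in the class II values was not tested.

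**Figure D5:**
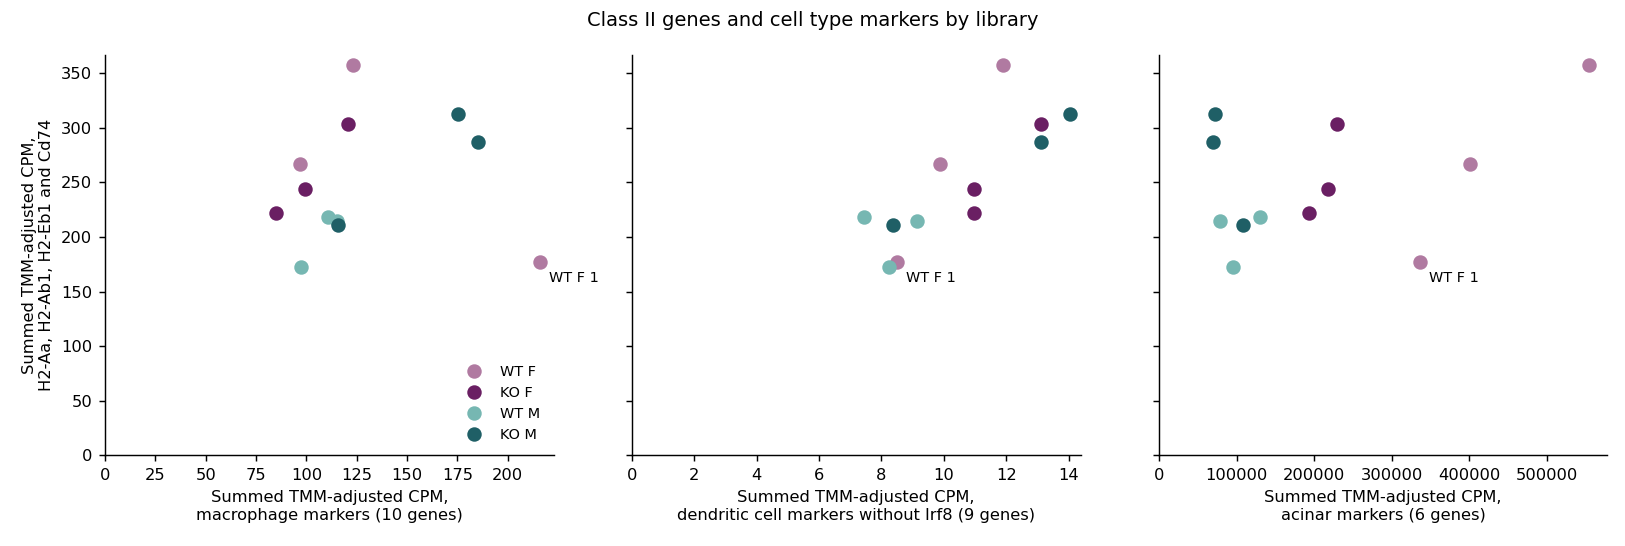
Summed CPM of H2-Aa, H2-Ab1, H2-Eb1 and Cd74 (vertical axis) against summed CPM of macrophage, dendritic cell (without Irf8) and acinar markers, with 1 point per library. WT female replicate 1 (WT F 1) is highest in macrophage markers at 216.2 CPM and near the lowest in class II at 176.8 CPM.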

How the data were processed

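The members, gene lists and markers were chosen with earlier results of these data known. Total RNA of snap-frozen SMGs was sequenced from stranded, ribosomal RNA-depleted libraries, as the methods state, while the labels say polyadenylated RNA. The authors quantified transcripts with Salmon 1.10.1 against Gencode M35 (GRCm39) and deposited estimated counts per gene, of which 78.6% are whole numbers. The authors also deposited a normalized signal, equal to these counts divided by a factor per gene and library whose making is not given in the sources used here; it was used in 1 alternative.

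Estimated counts were rounded and fitted in edgeR 4.0.16 (R 4.3.3) with TMM factors, filterByExpr (17893 genes kept, all 10 members among them), 1 mean per group over all 12 libraries and the quasi-likelihood test, with Benjamini-Hochberg adjustment per contrast at 0.05. SE was derived from the fold change and F (its absolute log2 value over the root of F). The study used DESeq2, an alternative here (1.42.0). Log2 CPM used a prior count of 2. Positions come from Gencode M39, which holds 55563 of 56065 identifiers, and promoters from RefSeq (GRCm38.p6 table). The steps were run on simulated counts in which all groups shared a mean composition, apart from a set of genes changed in KO females. That setting does not cover the differences in composition between the real groups. Alternatives were RLE and upper-quartile factors, the 20 most abundant genes left out of the library sizes, the authors' factors, no filter, at least 10 counts in every library, the groups of the contrast alone, DESeq2, a replicate block, and each library left out. The fits of cell type markers without single libraries were added after seeing the data. Named list genes are at most the 4 called genes with the smallest adjusted p per list and contrast, and the markers that moved with a result. Psmb9, H2-Ea and the single markers, adipocyte markers included, given with their levels were chosen after their values were seen. Figures used Python 3.11.15 and matplotlib 3.10.9.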

Additional observations from a re-analysis of the deposited data

Results flagged for a closer look

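The effect of the knockout differed between the sexes by the interaction test for B2m, the shared light chain of class I, with a log2 difference (female minus male effect) of −0.76 (edgeR, adjusted p = 0.0451). In 3 of 3 KO females B2m was below every WT female, while the male groups overlapped. In the gene lists the same test passed for 22 of 72 genes, and at most 2 per list, those with the smallest adjusted p, are named. It passed for the class I heavy chains H2-T22 (−0.81) and H2-M3 (−1.33), for Erap1 (−0.72) and Pdia3 (−0.94) of peptide loading, for Psme2 (−0.66) and Psmb10 (−1.29) of the immunoproteasome, for Ctss (−1.20) and Marchf8 (−0.42) of class II processing, for Jak1 (−0.68) and Gbp2 (−1.36) of the interferon gamma axis, and for Nfyb (−0.65) and Rfx5 (0.66) of the enhanceosome. H2-T22, Pdia3, Psme2, Psmb10, Ctss, Jak1 and Gbp2 passed in 20 of 20 alternatives. B2m passed in 12, Rfx5 in 13 and H2-M3 in 10, each in 5 of the 12 fits without 1 library. Marchf8 passed in 17, and Erap1 and Nfyb in 19. With the authors' factors Erap1 was at −0.27 (adjusted p = 0.486), and the calls of Nfyb, Marchf8 and H2-M3 were lost too. Rfx5 was the one of these 13 with a more positive effect in females. The interaction was called in 12.4% (negative) and 13.4% (positive) of all genes. Single outlying libraries were examined by leaving out 1 library at a time, and no separate outlier test is given here.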

How the results depend on the processing

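In KO females the 4 calls held in 7 of 9 alternative settings, upper-quartile scaling and the authors' factors giving 3 without H2-K1, and 2 to 4 without 1 library (2 without KO replicate 1, WT replicate 2 or WT replicate 3). The authors' factor of H2-K1 in WT female replicate 2 lay 0.61 above that library's median on the log2 scale. The KO male comparison stayed at 0 and KO males against KO females at 3 in all alternatives run. The interaction gave 2 calls with RLE, the 20 genes left out, at least 10 counts and DESeq2, 3 with the authors' factors or no filter, 0 with upper-quartile scaling, and 0 to 7 without 1 library: 7 without WT female replicate 1, 2 without KO female replicate 2 or WT male replicate 2, and 0 without KO female replicates 1 or 3, KO male replicates 2 or 3, WT female replicate 3, or WT male replicates 1 or 3. The WT sex comparison gave 1 call with RLE or the authors' factors, 2 with upper-quartile scaling, 3 with no filter or DESeq2, and 0 to 5 without 1 library (5 without WT female replicate 1). The cause of these differences was not tested. With the replicate block, counts were 4 in KO females, 0 in males, 1 for the interaction, 2 in the WT sex comparison and 3 in the KO one. Deviations of same-numbered libraries correlated between −0.13 and 0.27, the highest between replicate 1 of the WT females and of the WT males. These values cannot decide whether same-numbered libraries were handled together. Upper-quartile scaling moved the median of all genes by 0.10 in KO females and −0.16 in the KO sex comparison, and the authors' factors by −0.10 in the interaction.

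Reversals of sign concerned uncalled members near 0, apart from 2 list genes. In KO females, upper-quartile scaling gave 0.016 for H2-Ab1, 0.063 for H2-Eb1 and 0.081 for Cd74, and Cd74 was 0.011 with at least 10 counts and 0.012 with the block. In males, Nlrc5 was 0.0010 with upper-quartile scaling, 0.0046 with the 20 genes left out, 0.0065 with at least 10 counts, 0.00055 with DESeq2, 0.025 with the block and 0.0025 with the 2 groups alone, and Tap1 −0.039 with the authors' factors. Those factors also gave Tap1 0.0076 in the interaction, and in KO males against females H2-Ab1 0.029, Cd74 −0.013 and the called Ifngr2 −0.043, and in KO females the called Atf1 0.10. Upper-quartile scaling gave H2-Eb1 −0.11 and Cd74 −0.075 in KO males against females. Without 1 library, the ranges in KO females were −0.44 to 0.19 (H2-Aa), −0.39 to 0.14 (H2-Ab1), −0.33 to 0.21 (H2-Eb1) and −0.31 to 0.16 (Cd74), positive without WT replicate 3. In males they were −0.076 to 0.20 (H2-K1), −0.082 to 0.14 (H2-D1), −0.067 to 0.15 (B2m), −0.065 to 0.070 (Tap1) and −0.13 to 0.20 (Nlrc5). In WT males against females they were −0.070 to 0.23 (H2-D1) and −0.28 to 0.15 (Ciita), and in KO males against females −0.15 to 0.024 (Tap1), −0.36 to 0.065 (Nlrc5), −0.17 to 0.13 (H2-Ab1), −0.090 to 0.26 (H2-Eb1) and −0.031 to 0.25 (Cd74). A count of 3 is 0.0399 to 0.0782 CPM in these libraries, which limits what can be read from the lymphocyte markers and H2-Ea.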

Other observations

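H2-T24, a class I-like heavy chain gene, moved opposite to the class II members within groups (r = −0.73 over 12 libraries), while H2-Q7, a non-classical class I gene, moved with them (0.94). The 4 adipocyte markers also moved with them, Cidec at 0.94, Adipoq at 0.85, Plin1 at 0.83 and Fabp4 at 0.80. The summed adipocyte markers over 4 genes were 41.2 CPM in WT female replicate 3, which had the highest class II sum of all 12 libraries, 31.4 and 15.1 CPM in KO male replicates 2 and 3, and 1.38 to 5.50 CPM in the other 9. These values were chosen after they were seen, and the part of adipose or adjoining tissue was not tested.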
